A study of Saccharomyces cerevisiae YPS1009 with 40 samples.

Results

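The 10 core autophagy genes ATG1, ATG2, ATG3, ATG4, ATG5, ATG7, ATG8, ATG9, ATG13 and ATG17 were followed here across 5 strains of budding yeast and 4 time points. They were chosen by name, as the genes that start autophagosome formation and carry out Atg8 lipidation, and all 10 were found among the 6714 genes of the count table and passed the filter on low counts. The strains were haploid derivatives of the wild oak-soil isolate YPS1009, each listed as MATa and lacking HO, the gene for mating-type switching: YPS1009_Chr4, YPS1009_Chr12, YPS1009_Chr14 and YPS1009_Chr15 (labelled AGY1835, AGY735, AGY1845 and AGY1839) carry an engineered duplication of the whole chromosome they are named for, and the euploid (AGY731) carries none. Chr12 and the euploid are listed with the same ho deletion and the other 3 strains with another ho allele, so strain and ho allele cannot be told apart for Chr4, Chr14 and Chr15, and each duplication is represented by a single strain. Cells grew in rich YPD medium at 30 °C and were taken in log phase and on day 1, day 3 and day 7, as nutrients ran out and cultures moved toward quiescence. Total RNA depleted of rRNA was sequenced from 2 cultures per strain and time point, 40 libraries in all.

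Autophagy delivers cytoplasm and organelles to the vacuole, the lysosome of yeast, inside double-membrane autophagosomes, and it is switched on when nutrients run short. Atg1 is the protein kinase that starts the process, Atg13 its regulatory partner, and Atg17 the scaffold that assembles the complex. Atg9 is the membrane protein whose vesicles seed the forming membrane and Atg2 a lipid transfer protein at its edge. Atg8 is a ubiquitin-like protein that is trimmed by the protease Atg4, activated by the E1-like enzyme Atg7, passed to the E2-like enzyme Atg3 and joined to the membrane lipid phosphatidylethanolamine, a step helped by a complex that contains Atg5. Transcription of ATG8 is known to be held down during growth by Ume6, which binds the URS1 element.

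In the R64 reference annotation the members lay on 7 chromosomes. ATG9 (YDL149W) is on chromosome IV, ATG17 (YLR423C) on chromosome XII, and ATG2 (YNL242W), ATG4 (YNL223W) and ATG3 (YNR007C) on chromosome XIV, so that these 5 are on a chromosome duplicated in one of the strains. ATG8 (YBL078C) is on chromosome II, ATG1 (YGL180W) on VII, ATG7 (YHR171W) on VIII, and ATG5 (YPL149W) and ATG13 (YPR185W) on XVI, and no member is on chromosome XV. Each has a single coding segment without an intron, and none overlaps another annotated gene. The upstream regions of the 3 members with the largest changes below are shown from R64 as 300 bases ending 51 bases before the start codon, 5′ to 3′ on the gene's strand. Capitals mark the URS1 core (GCCGCC) and the stress response element (STRE, AGGGG) on either strand. The regions are ATG8 at chrII:80782-81081 on the minus strand, ATG1 at chrVII:159715-160014 on the plus strand and ATG9 at chrIV:184575-184874 on the plus strand.
ATG8: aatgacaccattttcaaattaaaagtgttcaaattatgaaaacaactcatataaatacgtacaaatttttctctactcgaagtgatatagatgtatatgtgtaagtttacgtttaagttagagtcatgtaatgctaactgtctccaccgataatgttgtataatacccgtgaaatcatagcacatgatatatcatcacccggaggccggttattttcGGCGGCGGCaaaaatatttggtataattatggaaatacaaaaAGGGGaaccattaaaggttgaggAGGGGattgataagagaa
ATG1: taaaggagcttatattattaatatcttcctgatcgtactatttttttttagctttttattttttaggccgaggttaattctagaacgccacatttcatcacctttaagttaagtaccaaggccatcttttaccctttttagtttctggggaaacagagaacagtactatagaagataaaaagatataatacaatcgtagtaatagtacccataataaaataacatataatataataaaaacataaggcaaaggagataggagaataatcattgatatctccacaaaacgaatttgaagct
ATG9: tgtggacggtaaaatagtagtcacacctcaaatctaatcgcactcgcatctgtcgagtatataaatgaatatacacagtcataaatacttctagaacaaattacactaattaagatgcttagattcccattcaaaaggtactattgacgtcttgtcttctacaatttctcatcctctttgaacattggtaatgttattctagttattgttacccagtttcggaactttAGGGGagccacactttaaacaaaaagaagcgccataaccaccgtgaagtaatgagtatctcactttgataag
The ATG8 region held 2 overlapping URS1 cores, the only ones among the 10 members, while 5.71% of 6007 promoters of this length hold one. STRE letters were found in 5 of 10 members (ATG3, ATG4, ATG8, ATG9 and ATG13), against 22.9% of all promoters. Those of ATG3 and ATG4 began 348 and 350 bases before the start codon, at the far end of the window. These 2 windows hold 69 and 80 bases of a neighbouring gene's coding sequence. GATAAG, the letters of GATA factor sites, stood in 2 members, ATG8 and ATG9, against 14.3% of promoters, and TGACTC, those of Gcn4 sites, in ATG4 and ATG8, against 8.06%, with both strands searched in each case. The ATG1 region held none of these letters. In the ATG8 window 39 bases, and in the ATG9 window 37 bases, belong to the coding sequence of a neighbouring gene, and the sequences are those of S288c, which may differ from YPS1009.

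Library totals ranged from 4182717 to 7036849 counts in log phase, from 1997415 to 3792145 on day 1, from 1033073 to 2228477 on day 3 and from 725316 to 2324046 on day 7. Values are given as CPM, counts relative to a library total scaled by TMM, which sets each library against the bulk of its other transcripts. A fall in RNA per cell shared by all transcripts is removed by this scale, and fewer cells and less RNA per cell cannot be told apart. Each duplication was seen in the counts: in log phase the median log2 difference from the euploid was higher on the duplicated chromosome than elsewhere by 0.97 in Chr4, 0.98 in Chr12, 0.93 in Chr14 and 0.89 in Chr15. The log-phase library labelled Chr15 replicate 1 went against its listed mating type. Its summed MATalpha markers stood at 2299.3 CPM of library total, without TMM scaling, against 2.4 to 6.2 CPM in the 9 other log-phase libraries. Its MATa markers summed to 13.6 CPM of library total, against 814.8 to 2864.3 CPM. Comparisons of members between Chr15 and the euploid, and the Chr15 time course, are therefore given with and without those cultures. The 2 euploid day-7 cultures lay farthest apart, with a median absolute log2 gap of 0.904 per gene, against 0.107 to 0.691 in the 19 other groups.

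In the euploid most core autophagy transcripts were higher after log phase at each later time, with ATG5 on day 3 the exception. Against log phase, 10 of 10 members rose on day 1, when 34.3% of the 5864 genes tested were called higher by edgeR's quasi-likelihood test at an adjusted p under 0.05. On day 3, 9 of 10 members were called higher (38.7% of all genes), and on day 7, 10 of 10 (37.5%). No member was called lower at any of these times, while 35% of all genes were on day 1, 41.4% on day 3 and 38.2% on day 7. The members' median log2 change was 3.13 on day 1, 4.25 on day 3 and 3.65 on day 7, against medians over all genes of -0.16 on day 3 and -0.02 on day 7.

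**Figure D1:**
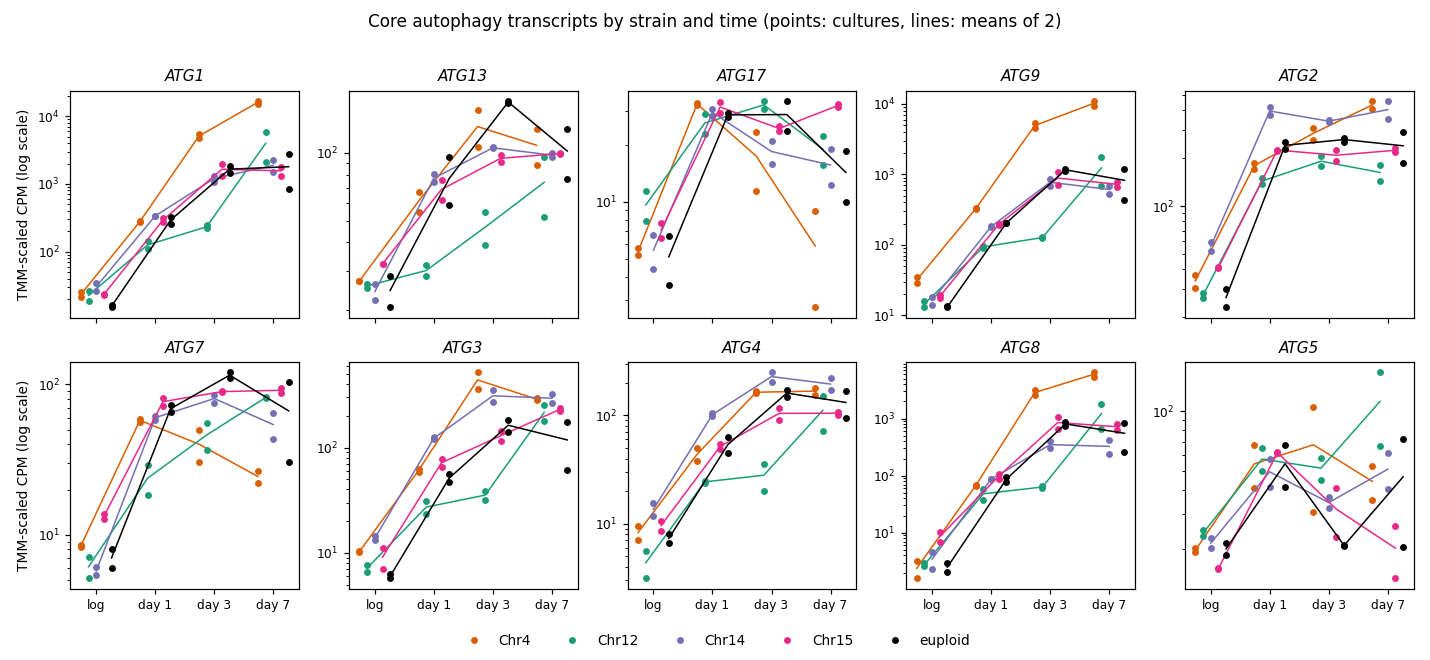
TMM-scaled CPM of the 10 members (log axis) by time point, with points for single cultures and lines through the means of 2 cultures per strain. On day 3 ATG8 stood at 66.1 and 60.4 CPM in Chr12, against 859.7 and 758 CPM in the euploid, where log-phase cultures had 2.08 and 2.91 CPM.

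The largest change belonged to ATG8, the ubiquitin-like protein of the autophagosome membrane. The 2 euploid cultures had 2.08 and 2.91 CPM in log phase, 77.7 and 96.5 CPM on day 1, 859.7 and 758 CPM on day 3, and 853 and 255 CPM on day 7. All later cultures lay above the log-phase cultures, which rested on 12 counts each. The log2 change from log phase was 5.13 ± 0.56 (SE) on day 1, 8.34 ± 0.61 on day 3 (adjusted p = 4.04e-13) and 7.79 ± 0.60 on day 7. ATG1, the initiating kinase, had 16.3 and 15.1 CPM in log phase, 259.5 and 327 CPM on day 1, 1837 and 1468 CPM on day 3, and 2757 and 832 CPM on day 7. Its cultures did not overlap between log phase and any later time, and the log2 changes were 4.22 ± 0.46, 6.72 ± 0.51 and 6.83 ± 0.51 over days 1, 3 and 7. ATG9, which supplies the seed membrane, had 12.98 and 13.35 CPM in log phase, 206 and 204 CPM on day 1, 1202 and 1120.0 CPM on day 3, and 1208 and 440.0 CPM on day 7. It thus followed ATG1 and ATG8, with log2 changes of 3.96 ± 0.40, 6.46 ± 0.44 and 5.96 ± 0.43.

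The enzymes of Atg8 conjugation also rose. ATG3, the E2-like enzyme, changed by 3.09 ± 0.35, 4.76 ± 0.37 and 4.25 ± 0.36 on the log2 scale over days 1, 3 and 7. ATG4, the protease, changed by 2.89 ± 0.34, 4.47 ± 0.35 and 4.15 ± 0.35, and ATG7, the E1-like enzyme, by 3.30 ± 0.35, 4.04 ± 0.36 and 3.15 ± 0.36. For ATG2, the lipid transfer protein, the change was nearly complete on day 1, at 3.17 ± 0.22, and stood at 3.29 ± 0.23 on day 3, with a difference between days 3 and 1 of 0.12 ± 0.21 (adjusted p = 0.624). The partners of Atg1 rose less: ATG13 by 1.66 ± 0.26, 2.78 ± 0.27 and 2.03 ± 0.27, and ATG17 by 2.44 ± 0.29, 2.44 ± 0.34 and 1.28 ± 0.35. ATG5 was the exception among the members. Its euploid cultures had 18.7 and 21.4 CPM in log phase, 41.2 and 67.0 CPM on day 1, 20.6 and 21.0 CPM on day 3, and 20.4 and 72.5 CPM on day 7. Its day-3 cultures thus lay within the log-phase range (log2 0.06 ± 0.52, adjusted p = 0.918), and the day-7 call came from replicate 2, without which the log2 change was 0.04 (adjusted p = 0.961). The day-1 call for ATG5 was lost without euploid day-1 replicate 2 (log2 0.93).

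Between day 1 and day 3 most members went on rising in the euploid. ATG1, ATG3, ATG4, ATG7, ATG8, ATG9 and ATG13 were higher on day 3 than on day 1, 7 of 10 members where 30.9% of all genes were, and ATG5 was lower (log2 -1.39 ± 0.49, adjusted p = 0.0144; 36.3% of all genes were lower). ATG7 was not called in any fit without one of the 4 libraries, each of which left 6 higher, nor with DESeq2 size factors (0.57, adjusted p = 0.0884), and the ATG5 call was lost in 3 of those 4 fits. Between day 3 and day 7, ATG7, ATG13 and ATG17 were called lower (3 of 10, against 13.5% of all genes) and ATG5 higher (1 of 10, against 21.8%). None of the 4 was called without euploid day-7 replicate 2 or without day-3 replicate 1, and leaving out 1 library at a time moved the number called lower between 0 and 9 (9 without day-7 replicate 1). A sum of 6 stationary-phase markers differed between the day-7 cultures, at 18644 CPM of library total in replicate 1 and 8341 CPM in replicate 2, and its part in these values was not tested.

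Per length of coding sequence the order of the members changed with time. In log-phase euploid cells ATG5 was the most abundant, with a mean of 22.6 RPKM (CPM per kilobase of coding sequence), followed by ATG13 with 11.1 RPKM and ATG8 with 7.05 RPKM. Most neighbours further down that order had overlapping cultures, and ATG7 stood last with 3.72 RPKM. On day 1 the order was led by ATG8 with 246 RPKM, ATG1 with 109 RPKM and ATG9 with 68.5 RPKM, and ATG9 (68.8 and 68.2 RPKM) overlapped ATG5 (46.6 and 75.8 RPKM). On day 3 it was led by the same 3, with 2284, 613 and 388 RPKM, each apart from the next in both cultures. ATG17 was last on day 3 with 23.0 RPKM and overlapped ATG5 with 23.5 RPKM. On day 7 the ranges of the 2 cultures overlapped between every pair of neighbours in the order but the last, ATG7 and ATG17. Within each culture ATG8 (2409 and 720.5 RPKM) still stood above ATG1 (1023 and 309 RPKM) and ATG1 above ATG9 (404 and 147 RPKM). As a share of all counts in a euploid library, with no TMM scaling, the 10 members took 0.0128% in both log-phase cultures, 0.115% and 0.127% on day 1, 0.385% and 0.383% on day 3, and 0.540% and 0.333% on day 7. ATG1, ATG8 and ATG9 made up 80.6% and 78.9% of the members' counts on day 3, against 24.9% and 24.1% in log phase.

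Other genes of the pathway were counted from lists chosen by function. All 12 factors of selective autophagy, such as receptors that tie cargo to Atg8 and the adaptor Atg11, were higher than log phase in the euploid on day 1, day 3 and day 7, with median log2 changes of 3.63, 5.41 and 5.02. The 2 with the largest change, ATG39 (a receptor for nuclear membrane) and ATG34 (a receptor for vacuolar enzymes), were close to absent in log phase: ATG34 had 1756 and 1869 counts in the day-3 cultures, against 4 and 1 counts in log phase, and ATG39 had 710.0 and 595 counts on day 3, against 1 and 1 counts, so no fold is given. Of 13 other genes of the core machinery, 12 were tested and ATG16 had at most 2 counts in any library. Of these, 10 rose on day 1 (34.3% of all genes), and 8 rose and 2 fell on both day 3 (38.7% and 41.4% of all genes) and day 7 (37.5% and 38.2%). ATG29 and ATG31, partners of Atg17, were the 2 with the largest rise on day 3 (log2 5.50 ± 0.47 and 4.01 ± 0.38), and VPS15, a subunit of the phosphatidylinositol 3-kinase complex, and ATG27, which helps Atg9 traffic, were lower (log2 -2.51 ± 0.31 and -1.41 ± 0.27). On day 1 the largest rises in that list were ATG29 (3.98 ± 0.48) and ATG38 (3.79 ± 0.32), which codes for another subunit of the kinase complex. Of the genes for breakdown inside the vacuole, the lipase ATG15 changed by 3.13, 5.03 and 4.43 and the amino acid exporter ATG22 by 4.62, 5.63 and 5.19 over days 1, 3 and 7.

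Known regulators moved in both directions. Among 13 regulators of ATG transcript levels, 7 rose and 1 fell on day 1 (34.3% and 35% of all genes), and 10 rose and 1 fell on day 3 (38.7% and 41.4%) and on day 7 (37.5% and 38.2%). GAT1, a GATA activator, changed by log2 3.61 ± 0.31 on day 1, 3.16 ± 0.37 on day 3 and 3.25 ± 0.33 on day 7, and MSN4, an activator that binds STRE, by 3.56 ± 0.34 on day 1. RPH1, which codes for a repressor of several ATG genes, rose by 3.11 ± 0.31 on day 3, and RPD3, coding for the histone deacetylase that works with Ume6, was lower on day 1 (-0.49 ± 0.21). GCN4, an activator of amino acid synthesis genes, was lower on day 3 (-0.78 ± 0.23) and day 7 (-2.05 ± 0.24). Among 11 nutrient-signalling kinases and TORC1 subunits, 6 rose and 1 fell on day 1, 8 rose and 1 fell on day 3, and 8 rose and 0 fell on day 7, beside the same shares of all genes. On day 3 TPK2, a catalytic subunit of protein kinase A, was higher (3.70 ± 0.38) and TPK3, another such subunit, was lower (-1.71 ± 0.36), and RIM15, a kinase needed for entry into quiescence, rose by 2.63 ± 0.24 on day 7.

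**Figure D2:**
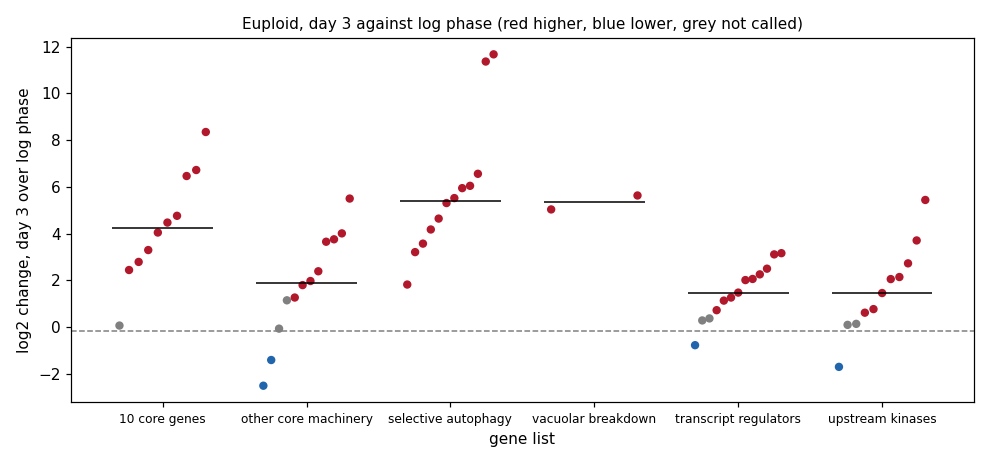
Log2 change of euploid transcripts on day 3 over log phase, 1 point per gene, for the 10 core genes and 5 other lists. Horizontal bars are list medians, 4.25 for the core genes and 5.41 for selective autophagy, and the dashed line is the median of all genes tested, -0.16.

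By day 3 most core autophagy transcripts were far lower in Chr12 than in the euploid, relative to the other transcripts of each library. Levels per cell were not computed. In log phase no member was called between Chr12 and the euploid (0 of 10, where 5.53% of all genes were higher and 2.61% lower). On day 1, 7 of 10 were lower in Chr12 and none higher (14.8% of all genes lower, 16.2% higher). On day 3, 7 of 10 were lower and 1 higher (31.5% and 38.4% of all genes), and the members' median log2 difference was -2.02, against 0.22 over all genes. The median over genes depended on those taken. Among genes with 100 counts or more in each of the 4 libraries compared, it was -1.33 off chromosome XII. ATG1, ATG2, ATG8 and ATG9 belong to that set.

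ATG8 showed the largest difference. On day 3 Chr12 had 66.1 and 60.4 CPM, against 859.7 and 758 CPM in the euploid, a log2 difference of -3.67 ± 0.47 (adjusted p = 9.56e-08). ATG9 had 128 and 126 CPM in Chr12, against 1202 and 1120.0 CPM in the euploid (log2 -3.19 ± 0.37), and ATG1 had 246 and 220.2 CPM in Chr12, against 1837 and 1468 CPM (log2 -2.83 ± 0.42). For these 3 the Chr12 cultures lay close together and well below the euploid. ATG4 (-2.51 ± 0.32), ATG3 (-2.20 ± 0.32), ATG13 (-1.84 ± 0.27) and ATG7 (-1.31 ± 0.32) were also lower, so that the initiating kinase, its regulator and the E1, E2 and protease of Atg8 conjugation were all among the genes below the euploid. All 7 remained lower on day 3 without any one of the 4 libraries compared and with library totals as the scale. ATG2 differed by -0.45 ± 0.21 (adjusted p = 0.0533) and ATG17, on the duplicated chromosome, by 0.18 ± 0.29 (adjusted p = 0.592). ATG5 alone was higher, with 45.0 and 57.8 CPM in Chr12, against 20.6 and 21.0 CPM in the euploid (log2 1.30 ± 0.50, adjusted p = 0.0218), a call that was lost in 3 of the 4 fits without one library (adjusted p 0.0876 to 0.0942).

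The day-1 differences in Chr12 were smaller. They ran from -0.75 ± 0.21 for ATG2 to -1.52 ± 0.32 for ATG7, with ATG13 at -1.36 ± 0.27, ATG1 at -1.22 ± 0.40, ATG4 at -1.14 ± 0.31, ATG9 at -1.13 ± 0.35 and ATG3 at -0.91 ± 0.32. ATG13 had 31.8 and 28.2 CPM in Chr12, against 58.4 and 95.4 CPM in the euploid, with no overlap. In fits without one of the libraries compared all these differences stayed negative, but none of the fits kept every call. ATG7 then ran from -1.24 to -1.91, ATG13 from -0.93 to -1.66 and ATG1 from -1.02 to -1.43.

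The change from log phase itself was smaller in Chr12 than in the euploid for 6 members on day 3 (26.1% of all genes had a lower change), by a test of the difference between the 2 time courses. That difference was -3.83 ± 0.78 for ATG8, -3.35 ± 0.59 for ATG1, -3.33 ± 0.52 for ATG9, -2.45 ± 0.49 for ATG3, -1.91 ± 0.37 for ATG13 and -1.80 ± 0.50 for ATG4. On day 1 it was called for ATG1 (-1.74 ± 0.59) and ATG13 (-1.43 ± 0.37), 2 of 10, where 6.74% of all genes had a lower change. Neither was called without euploid day-1 replicate 2 or in a fit of only the libraries compared (adjusted p = 0.204 and 0.098). In 4 other fits without one library, Chr12 log-phase or day-1 replicate 2 or either euploid log-phase culture, 1 was called. Even so, 10 of 10 members were higher on day 3 than in log phase within Chr12 (32.5% of all genes), with ATG8 at log2 4.51 ± 0.54 and ATG1 at 3.37 ± 0.44. Of these the ATG5 call was lost with DESeq2 size factors (0.89, adjusted p = 0.0557) and without Chr15 replicate 1 in the fit (0.90, adjusted p = 0.0642), and in 3 of the 4 fits without one library compared.

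Other transcripts of late cultures moved with this result. All 12 selective autophagy factors were lower in Chr12 than in the euploid on day 3, as were ATG15 and ATG22, where 31.5% of all genes were. The 12 ran from -3.57 ± 0.46 for ATG34 to -0.64 ± 0.27 for ATG19, and ATG15 and ATG22 differed by -2.09 and -1.17. Off chromosome XII the median was -1.33 among genes with 100 counts or more in each library compared, so a lower value was common among well-counted genes. A sum of 6 stationary-phase markers stood at 1395 and 1787 CPM of library total in Chr12 on day 1, against 13374 and 15474 CPM in the euploid, and at 3536 and 3629 CPM on day 3, against 22074 and 19803 CPM. The markers did not all move alike: on day 1 HSP12 (-7.02), HSP26 (-5.28) and FMP45 (-1.48) were called lower in Chr12 and the other 3 were not, and on day 3, 5 of 6 were lower while HSP26 was at -0.30 (adjusted p = 0.531). None of the 6 was at 0 in these libraries, and their part in the autophagy result was not tested. In library shares without TMM scaling, the 10 members took 0.116% and 0.103% of day-3 counts in Chr12, against 0.385% and 0.383% in the euploid.

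By day 7 the Chr12 deficit was no longer seen. ATG8 had 1809 and 646 CPM in Chr12, against 853 and 255 CPM in the euploid, and ATG1 had 5878 and 2076 CPM, against 2757 and 832 CPM, so that the ranges of the 2 strains overlapped for both genes. ATG1 (log2 1.15 ± 0.40), ATG8 (1.15 ± 0.42) and ATG3 (0.90 ± 0.31) were called higher and ATG2 lower (-0.56 ± 0.22), which is 3 and 1 of 10 where 17.9% and 15.4% of all genes were. These calls did not hold up: the number called higher was 0 without Chr12 day-7 replicate 1, 1 without euploid day-7 replicate 2, 5 without either of the other cultures, and 0 with library totals, which gave 3 lower.

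**Figure D3:**
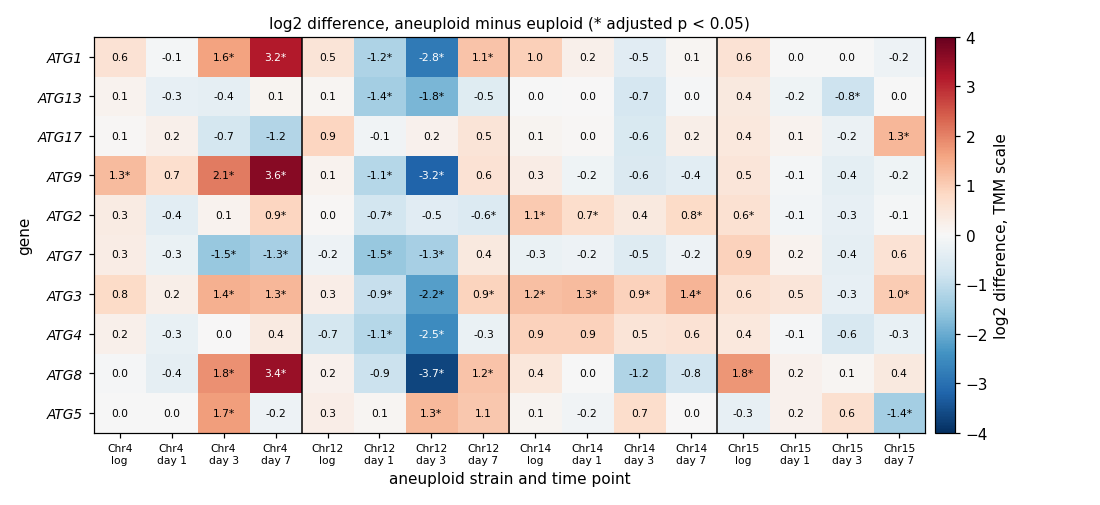
Log2 difference of each member between an aneuploid and the euploid at the same time point (TMM scale), with an asterisk for an adjusted p under 0.05. The blue block at Chr12 on day 3 reaches -3.67 for ATG8, and the red block at Chr4 on day 7 reaches 3.63 for ATG9.

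Chr4 cultures went the other way for ATG1, ATG8 and ATG9. On day 3, 5 of 10 members were higher than in the euploid and 1 lower (17.7% and 13.3% of all genes), and on day 7 the counts were again 5 and 1 (22.6% and 31.8%). In log phase 1 of 10 was higher, ATG9 (7.45% of all genes; 2.2% were lower), and on day 1 none was called in either direction (11.3% higher, 5.66% lower).

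ATG8 had 3136 and 2606 CPM in Chr4 on day 3, against 859.7 and 758 CPM in the euploid (log2 1.83 ± 0.43), and 6563 and 5438 CPM on day 7, against 853 and 255 CPM (log2 3.45 ± 0.46, adjusted p = 3.71e-07). ATG1 had 16850.0 and 15360.0 CPM in Chr4 on day 7, against 2757 and 832 CPM in the euploid (log2 3.17 ± 0.43), and ATG9 had 11040.0 and 9360.0 CPM, against 1208 and 440.0 CPM (log2 3.63 ± 0.38). Each Chr4 culture lay above both euploid cultures for these 3 genes on both days. Their share of the members' counts in Chr4 on day 7 was 97.0% and 96.6%, against 84.2% and 74.2% in the euploid. The change from log phase to day 7 exceeded that of the euploid by 3.49 ± 0.79 for ATG8, 2.60 ± 0.59 for ATG1 and 2.37 ± 0.51 for ATG9, 3 of 10 members where 16.6% of all genes had a higher change. Without euploid day-7 replicate 1 that number was 5.

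ATG7 was lower in Chr4 than in the euploid, and ATG4 was not called (log2 0.03 ± 0.31 on day 3 and 0.37 ± 0.32 on day 7). ATG7 had 49.4 and 30.7 CPM in Chr4 on day 3, against 109 and 121 CPM in the euploid (log2 -1.53 ± 0.38), and 22.1 and 26.7 CPM on day 7, against 103 and 30.3 CPM (log2 -1.34 ± 0.48). The Chr4 libraries held only 8 and 9 counts of ATG7 on day 7, and that call was lost without Chr4 replicate 1 or 2 or euploid replicate 1, as the day-3 call was without Chr4 replicate 2 (adjusted p = 0.0628). ATG3 was higher on day 3 (1.43 ± 0.31) and day 7 (1.33 ± 0.32). ATG5 was called higher on day 3, with 104.5 and 30.7 CPM in Chr4, against 20.6 and 21.0 CPM in the euploid, but without Chr4 replicate 1 the log2 difference was 0.61 (adjusted p = 0.632). ATG17 had 1 and 3 counts in the Chr4 day-7 libraries, against 20 and 30 counts in the euploid, and its difference missed the threshold (log2 -1.16 ± 0.68, adjusted p = 0.154).

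The 6 stationary-phase markers summed to 18495 and 18503 CPM of library total in Chr4 on day 7, against 18644 and 8341 CPM in the euploid. On the TMM scale 4 of 6 were higher in Chr4 than in the euploid on day 7 (HSP26 by 4.38, SPG1 by 2.89, SPG4 by 2.80 and SNZ1 by 1.18 on the log2 scale) and HSP12 was lower (-1.0015), and on day 3 HSP26 (1.97) and SPG4 (1.404) were higher. Their part in the autophagy values was not tested. Scaling mattered most for Chr4 on day 7. The 50 most abundant genes held 50.2% and 48.5% of the counts there, against 29.7% and 22.1% in the euploid, and the median of all genes was -0.59 on the TMM scale and -2.48 with library totals. With library totals ATG8 (1.77), ATG9 (1.93) and ATG1 (1.503) were still higher, but ATG2 turned to -0.95 and ATG3 to -0.39 (adjusted p = 0.101), and 6 members were called lower. On day 3 library totals gave 5 members lower. Relative to the median of all genes, ATG1, ATG8 and ATG9 thus stood above it, and their direction was the same with TMM, DESeq2 size factors and library totals. The day-7 median off chromosome IV was 1.53 on the TMM scale among genes with 100 counts or more in each library compared. ATG1, ATG8 and ATG9 belong to that set.

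Members on a duplicated chromosome were compared with the other genes of that chromosome. On chromosome XIV, ATG3 had 14.4 and 13.2 CPM in log-phase Chr14 cells, against 5.71 and 6.31 CPM in the euploid, and it was called higher at all 4 time points, by log2 1.2002 ± 0.36 in log phase, 1.25 ± 0.30 on day 1, 0.93 ± 0.30 on day 3 and 1.36 ± 0.30 on day 7. ATG2 was higher in log phase (1.06 ± 0.21), on day 1 (0.72 ± 0.20) and on day 7 (0.76 ± 0.21) and missed the threshold on day 3 (0.38 ± 0.21, adjusted p = 0.21). ATG4 differed by 0.91 ± 0.34, 0.92 ± 0.29, 0.50 ± 0.29 and 0.59 ± 0.29 over the 4 times, with adjusted p of 0.156, 0.0556, 0.247 and 0.167. The median of all genes on the chromosome was 0.83, 0.95, 0.99 and 0.85 at those times. The day-3 median depended on the genes taken. Over those with 100 counts or more in each library compared it was 0.55, against -0.44 on the other chromosomes. ATG2, ATG3 and ATG4 belong to that set.

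No other member was called in Chr14. The calls there were 2 of 10 higher in log phase (4.45% of all genes), 2 on day 1 (4.95%), 1 on day 3 (8.94%) and 2 on day 7 (7.21%), each of them ATG2 or ATG3, and 0 lower (0.563%, 1.79%, 6.31% and 9.11% of all genes). Several were lost without one library. ATG3 in log phase (log2 1.12 to 1.27) and on day 3 (0.74 to 1.13) was lost without any one of the 4. So was ATG2 on day 1 (0.63 to 0.79). The ATG2 call on day 7 was lost without Chr14 replicate 2 (0.57) or euploid replicate 2 (0.47). Day-7 calls also turned on which euploid culture was kept. Further members were called higher without euploid day-7 replicate 1, and some were called lower without replicate 2. ATG3 then stood at 2.26 and 0.75. ATG8 on day 3, which lies on another chromosome, had 304 and 398 CPM in Chr14, against 859.7 and 758 CPM in the euploid, and missed the threshold (log2 -1.21 ± 0.42, adjusted p = 0.0511).

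**Figure D4:**
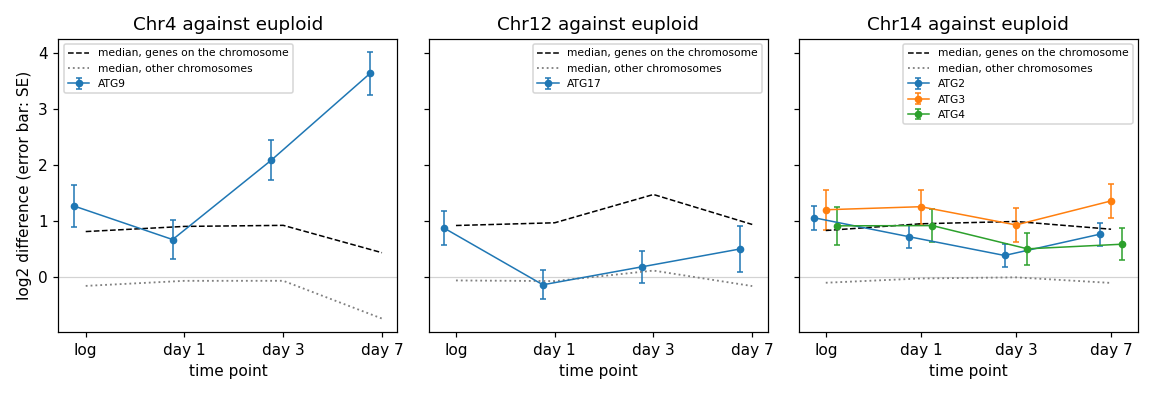
Log2 difference from the euploid (error bars, SE) for the members on chromosomes IV, XII and XIV in the strain that duplicates that chromosome, with the median of all genes on the chromosome (dashed) and off it (dotted). ATG9 in Chr4 reached 3.63 on day 7, while ATG17 in Chr12 stood at 0.87 in log phase and at 0.18 on day 3.

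On chromosome IV, ATG9 had 28.8 and 34.7 CPM in log-phase Chr4 cells, against 12.98 and 13.35 CPM in the euploid (log2 1.27 ± 0.37, adjusted p = 0.0271, lost without any one of the 4 libraries), and on day 1 it differed by 0.67 ± 0.34 (adjusted p = 0.199). The chromosome's median was 0.81 and 0.90 at those times, and 0.43 on day 7, when ATG9 stood at 3.63. When only genes with 100 counts or more in each of the 4 libraries were taken, ATG9 among them, the chromosome's day-7 median was 2.35, against 1.53 on the other chromosomes. ATG1 and ATG8, which lie on chromosomes VII and II, differed by 3.17 and 3.45 on that day. On chromosome XII, ATG17 had 11.3 and 7.88 CPM in log-phase Chr12 cells, against 6.57 and 3.64 CPM in the euploid (log2 0.87 ± 0.30, adjusted p = 0.0766). Later it differed by -0.14 ± 0.26, 0.18 ± 0.29 and 0.50 ± 0.42 on days 1, 3 and 7, while the chromosome's median was 0.97, 1.47 and 0.94. The day-3 median depended on the genes taken and was -0.35 over those with 100 counts or more in each of the 4 libraries, against -1.33 on the other chromosomes. ATG17, with 97 and 72 counts in Chr12 and 33 and 26 counts in the euploid on day 3, does not belong to that set.

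Chr15 duplicates no member, and few members were called there. In log phase 2 of 10 members were higher (11.4% of all genes; 3.7% were lower), ATG8 (1.77 ± 0.57) and ATG2 (0.62 ± 0.21). ATG8 had 6.83 and 10.3 CPM in Chr15, against 2.08 and 2.91 CPM in the euploid. On day 1 none was called (4.42% and 0.273% of all genes higher and lower). On day 3, 1 of 10 was lower, ATG13 (-0.83 ± 0.26; 11.6% of all genes were lower and 17.3% higher). On day 7, ATG3 (1.00 ± 0.30) and ATG17 (1.33 ± 0.31) were higher and ATG5 lower (-1.37 ± 0.45), where 12.5% and 17.3% of all genes were. ATG17 had 33.0 and 31.5 CPM in Chr15 on day 7, against 18.6 and 9.98 CPM in the euploid.

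Without the cultures labelled Chr15 replicate 1, of these 6 calls only ATG3 (1.09, adjusted p = 0.0324) and ATG17 (1.26, adjusted p = 0.0323) on day 7 were still called. ATG8 in log phase then stood at 1.99 (adjusted p = 0.0559), ATG2 at 0.54 (adjusted p = 0.242), ATG13 on day 3 at -0.90 (adjusted p = 0.0565) and ATG5 on day 7 at -1.002 (adjusted p = 0.25). Leaving out euploid day-7 replicate 2 also ended the day-7 calls for ATG3, ATG5 and ATG17 (adjusted p = 0.375, 0.969 and 0.18). The change from log phase to day 3 was smaller in Chr15 than in the euploid for ATG7 (-1.30 ± 0.47), ATG13 (-1.23 ± 0.37) and ATG2 (-0.95 ± 0.30), 3 of 10 where 10.6% of all genes had a lower change, and none of these was called without replicate 1 (adjusted p = 0.151, 0.0718 and 0.0645).

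Within every aneuploid the members rose after log phase. On day 1 the number higher than log phase was 10 in Chr4 (33.1% of all genes), 9 in Chr12 (30.5%), 10 in Chr14 (34.7%) and 10 in Chr15 (34%). On day 3 it was 10, 10, 9 and 10 in the same order of strains (34.8%, 32.5%, 38.4% and 36.8%), and on day 7 it was 8, 10, 10 and 9 (33.3%, 35.6%, 38.8% and 38.4%). No member was called lower than log phase in any of them, while of all genes 29.6%, 41% and 42.5% were over days 1, 3 and 7 in Chr4, 31.3%, 32.3% and 38.3% in Chr12, 33.1%, 39.5% and 39.1% in Chr14, and 32.2%, 39.6% and 40.9% in Chr15. The members not called were ATG13 in Chr12 on day 1 (0.23 ± 0.27), ATG5 in Chr14 on day 3 (0.68 ± 0.44), ATG5 in Chr15 on day 7 (0.31 ± 0.45), and ATG5 (1.17 ± 0.58) and ATG17 (0.07 ± 0.74) in Chr4 on day 7. On day 7 the log2 change of ATG8 was 11.28 ± 0.66 in Chr4, 8.78 ± 0.61 in Chr12, 6.59 ± 0.56 in Chr14 and 6.41 ± 0.54 in Chr15. Without Chr15 replicate 1 the members called higher in Chr15 were 10, 9 and 9 on days 1, 3 and 7, ATG5 being lost on day 3, and ATG8 stood at 5.98 on day 7.

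Over the 20 group means of strain and time point, which share growth stage and depth and include both Chr15 cultures, ATG1, ATG8 and ATG9 varied most alike on the log2 CPM scale (Pearson r = 0.989 for ATG1 with ATG8, 0.985 for ATG1 with ATG9 and 0.981 for ATG8 with ATG9), as a description only. The least alike pairs were ATG5 with ATG13 (r = 0.329) and ATG9 with ATG17 (r = 0.35). Among all other genes tested, those closest to ATG8 were PAL2 (r = 0.993), PCI8 (0.992), GLC8 (0.991), SSH4 (0.990) and ATG32 (0.989), the receptor for mitochondria. The closest to ATG1 were ATG32 (0.993), ATG11 (0.992), ROQ1 (0.989), PCI8 (0.987) and PAL2 (0.987).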

How the data were processed

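RNA-seq of rRNA-depleted total RNA covered 40 libraries, 2 cultures for each of 5 strains at 4 time points. Cells were mixed with Schizosaccharomyces pombe before extraction, but the count table holds 0 rows of that species, so no value per cell was computed. The authors deposited raw read counts per gene: per the submitters' processing notes, reads were trimmed with Trimmomatic 0.39, aligned with BWA 0.7.12-r1039 and counted with HTSeq 0.7.2, and the methods name the S288c genome with YPS1009 SNPs. The reference release and strand setting are not given in the sources used here.

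Groups came from the sample titles, and strain names from the study's strain list. The 5864 of 6714 genes that reached 10 counts in 2 or more libraries were fitted in edgeR 4.0.16 (R 4.3.3) with TMM scaling, 1 coefficient per strain and time point over all 40 libraries, and the two-sided quasi-likelihood test with Benjamini-Hochberg adjustment over all genes tested. A call is an adjusted p under 0.05, and the standard error is the log2 difference divided by the square root of F. Differences of time courses were tested as interaction contrasts. The fit was tested on simulated data. p-values rest on the spread between cultures of a group, estimated for each gene over all 40 libraries together. Groups whose cultures lay farther apart, such as euploid day 7, were not given a wider spread of their own. No pair of cultures was alike enough to be counted as 1 sample. RPKM is the TMM-scaled CPM per kilobase of R64 coding sequence, and 6025 gene identifiers matched R64. Alternatives were other scalings, DESeq2 1.42.0, other filters, a replicate block, smaller fits and leaving out libraries. Leaving out Chr15 replicate 1 at all times was chosen after seeing the data. Of the other lists, up to 2 genes with the largest called rise and 2 with the largest called fall per euploid contrast with log phase were named; values named beyond these were chosen after they were seen. A result that the rule would have named in the kinase list is not reported here. The members and lists were chosen with earlier results of these data known.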

Additional observations from a re-analysis of the deposited data

Results flagged for a closer look

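The change from log phase differed between an aneuploid and the euploid, by the interaction test in edgeR, for 16 combinations of member, strain and day. In Chr12 the change was smaller on day 1 for ATG1 (log2 -1.74) and ATG13 (-1.43) and on day 3 for ATG1 (-3.35), ATG3 (-2.45), ATG4 (-1.80), ATG8 (-3.83), ATG9 (-3.33) and ATG13 (-1.91). Neither day-1 difference was called without euploid day-1 replicate 2 or in a fit of only the libraries compared. In Chr4 it was smaller for ATG7 on day 3 (-1.81) and day 7 (-1.63), the day-7 value resting on 8 and 9 counts and not called with DESeq2 size factors (-1.33, adjusted p = 0.0796), the day-3 value not called without Chr4 day-3 replicate 2 or euploid log-phase replicate 1, and larger on day 7 for ATG1 (2.60), ATG8 (3.49) and ATG9 (2.37). In Chr15 it was smaller on day 3 for ATG2 (-0.95), ATG7 (-1.30) and ATG13 (-1.23), none of which was called without the cultures labelled replicate 1.

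Outside the autophagy genes, the MATalpha markers in the cultures labelled Chr15 replicate 1 summed to 2299.3 CPM of library total in log phase and 1772.6 on day 1. The 9 other libraries of each time had 2.4 to 6.2 CPM and 8.0 to 20.9 CPM of library total, although all strains are listed as MATa.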

How the results depend on the processing

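Counts below are of members called, summed over the 4 aneuploids where strains are compared, and the cause of a move was not tested. With library totals, aneuploid against euploid gave 14 higher in log phase (5 as reported), 4 higher on day 1 (2), and 7 higher and 10 lower on day 7 (12 and 3). The aneuploid time courses on day 7 gave 1 lower (0), the differences of time courses 6 lower on day 1 (2) and 1 higher and 10 lower on day 7 (3 and 1), and euploid day 7 against day 3 0 lower (3). Library totals turned ATG2 (-0.95) and ATG3 (-0.39) in Chr4 against the euploid on day 7, and ATG7 in Chr4 on day 7 against log phase (-0.30). They shifted the median of all genes by up to 2.18 and DESeq2 size factors by up to 0.371.

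DESeq2 size factors gave 1 lower on day 7 against the euploid and 0 lower in the day-7 differences, and the DESeq2 Wald test 6 lower on day 1 and 2 higher on day 3 in the differences, where no filter gave 4 lower on day 1. With at least 10 counts in every library the euploid had 1 lower on day 3 against log phase, 2 lower on day 3 against day 1 and 0 lower on day 7 against day 3, the aneuploids had 4 higher on day 1, and the differences had 1 higher and 6 lower on day 3 and 2 lower on day 7. ATG5 in Chr4 on day 3 against log phase then turned to -0.014. Fits of only the libraries compared gave 16 higher in log phase, 4 higher on day 1, and 4 higher and 0 lower on day 7, 0 lower in the day-1 differences, 0 lower in euploid day 3 against day 1, and 0 higher and 0 lower in day 7 against day 3. Without Chr15 replicate 1 there were 3 higher in log phase and 1 on day 1.

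Replicate numbers did not pair the cultures (correlations of deviations in 33 comparisons ran from -0.495 to 0.413, median 0.015), and a replicate block changed the count of calls only for euploid day 7 against day 3, to 0 higher. With genes of at least 100 counts, the mean dosage difference was 0.862 in Chr4, 0.945 in Chr12 and 0.944 in Chr14. The median log2 CPM of the members in the euploid was 3.48 in log phase and 7.21 on day 3 with DESeq2 size factors, and 7.16 on day 3 with library totals.

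Leaving out 1 library at a time, euploid against log phase gave 9 to 10 higher on day 1, 9 to 9 on day 3 and 9 to 10 on day 7, with 0 to 0 lower. Day 3 against day 1 gave 6 to 6 higher and 0 to 1 lower, and day 7 against day 3 0 to 1 higher and 0 to 9 lower, where ATG5 ranged from -0.0297 without euploid day-7 replicate 2 to 1.80 without replicate 1. Aneuploid against euploid gave 0 to 4 higher in log phase, 0 to 2 higher and 2 to 7 lower on day 1, 4 to 7 and 8 to 10 on day 3, and 7 to 20 and 1 to 6 on day 7. The aneuploid time courses gave 38 to 39, 38 to 39 and 35 to 37 higher on days 1, 3 and 7. The differences gave 0 to 2 lower on day 1, 0 to 1 higher and 7 to 11 lower on day 3, and 3 to 14 higher and 0 to 5 lower on day 7. Depth limits the members with few counts, among them ATG8 in log phase and ATG7 and ATG17 in Chr4 on day 7.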
